A study of Mus musculus with 4 samples.

Results

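The immune infiltrate of mouse pancreatic tumours was described here through droplet barcodes chosen by their Ptprc counts, the gene of the pan-leukocyte surface phosphatase CD45. KPC-4545 or KPC-3403 cells, 2 lines of the KPC model of pancreatic ductal adenocarcinoma, had been implanted orthotopically into C57BL/6J mice. They were untreated, were collected on day 13 and were dissociated enzymatically, and the unsorted suspension of each (the whole tumour) gave 1 single-cell library. A further library per line held the fraction without the surface markers CD45, CD31, TER119 and EPCAM after sorting (the enriched preparation) and enters only where it is named. A barcode was a member if it held at least 500 UMIs (unique molecular identifiers, 1 per captured transcript), at least 250 genes, at most 20% UMIs of mitochondrially encoded genes and at least 1 Ptprc UMI. This gave 719 members among 1753 barcodes that passed the other thresholds in the whole libraries, and 6020 in all 4 libraries. Of the members, 290 came from KPC-4545 and 429 from KPC-3403.

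With 1 library per line, differences between lines cannot be told apart from differences between animals, dissections or libraries. No test was therefore run, and intervals (95%, exact) cover counting error only. Members of a library share their tumour and are not replicates of the line.

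Pancreatic tumours of this kind recruit myeloid cells such as macrophages and neutrophils, which can restrain T cells, and also hold lymphocytes. The groups below follow 1 gene each. Cd79a encodes a chain of the B cell receptor complex, Cd3e a chain of the T cell receptor complex, and Ncr1 the natural killer (NK) cell receptor NKp46. Csf1r and Csf3r encode the receptors for the growth factors of macrophages and granulocytes, and Flt3 a receptor on which dendritic cells depend.

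Ptprc chose the members, so its level among them is a description. It stood at 881 UMIs in the 290 KPC-4545 members and 1295 UMIs in the 429 KPC-3403 members, and 101 and 140 of them held exactly 1 Ptprc UMI. Just outside the rule were 246 and 788 passing barcodes with 0 Ptprc UMIs. The label fitted other leukocyte genes: at least 2 of 9 others, such as Coro1a and Laptm5, were found in 290 of 290 and 426 of 429 members, and these genes with Ptprc summed to 92.3 and 89.6 UMIs per 10000. Requiring 2 of these genes in place of Ptprc raised the populations to 412 and 654 barcodes, so that a Ptprc UMI missed part of the leukocytes. It missed them unevenly: of passing barcodes with the marker, Ptprc was found with Ncr1 in 21 of 23 and 32 of 34, with Cd3e in 102 of 126 and 166 of 189, with Cd79a in 116 of 178 and 82 of 133, and with Csf3r in 20 of 27 and 50 of 90 (KPC-4545 and KPC-3403). The Csf3r-positive barcodes without Ptprc were shallow, with medians of 1392 and 1658 UMIs against 4547.5 and 3404 in those with Ptprc. Ptprc was found with Csf1r in 21 of 32 and 34 of 70, and with Flt3 in 2 of 7 and 17 of 25. The Csf1r-positive KPC-3403 barcodes without Ptprc were deep, with a median of 10731 UMIs against 7580. Of the 70, 52 held 2 leukocyte genes, so not all that lacked Ptprc need be missed leukocytes.

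Depth was alike between the lines, with medians of 3672 and 3902 UMIs and of 1310.5 and 1325 genes per member, from libraries of 5746733 and 13990046 UMIs. Whole KPC-3403 shared 139 passing barcode sequences with the enriched KPC-4545 library against 6 to 11 in all other pairs of libraries. Of these 139, 14 were members and 132 had more UMIs in whole KPC-3403 (medians of 29006 and 785 UMIs). Only 1 KPC-4545 and 3 KPC-3403 members had more UMIs elsewhere, and every marker share ratio lay within its counting interval without them. Red cell RNA differed between the libraries: 6 erythroid genes summed to 2.71 and 70.4 UMIs per 10000 in members, with Hbb-bs, a beta globin gene, at 258 UMIs in 169 barcodes and 8177 UMIs in 342. Per member the erythroid list had medians of 2.69 and 7.26 UMIs per 10000, and without the 6 KPC-3403 members of over 5% haemoglobin UMIs the log2 ratio of Hbb-bs fell from 4.35 to 1.20. In barcodes of at most 100 UMIs, a measure of free RNA, Hbb-bs stood at 560 and 390 per 10000. These are shares of 957262 and 2479984 free UMIs and not amounts of globin RNA. Lists of epithelial (0.248 and 1.34 per 10000) and fibroblast genes (0.120 and 0.738) were also higher in KPC-3403 members. The part of these in the results was not tested.

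Ptprc-positive barcodes made up a larger share of the KPC-4545 library, and more of them carried the B cell marker there. Neutrophil markers were more frequent in KPC-3403 by most counts, and T and NK cell markers took similar shares. Members were 54.1% of passing barcodes in KPC-4545 (49.8 to 58.4) and 35.3% in KPC-3403 (32.6 to 38.0), a ratio of 0.65 (0.56 to 0.76). Cd79a was found in 116 of 290 and 82 of 429 members, 40.0% against 19.1%, a ratio of 0.48 (0.36 to 0.64). Cd3e was found in 102 (35.2%) and 166 (38.7%), a ratio of 1.10 (0.85 to 1.42). Which of these markers was found more often in KPC-4545 depended on the count, since with at least 2 Ptprc UMIs Cd79a was in 57 and Cd3e in 80 members. Ncr1 was found in 21 (7.24%) and 32 members (7.46%, ratio 1.03, 0.58 to 1.88), and Csf1r in 21 (7.24%) and 34 (7.93%, ratio 1.09, 0.62 to 1.98), intervals that hold both no difference and a change of over 1.5 times.

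Csf3r was found in 20 members of KPC-4545 (6.90%) and 50 of KPC-3403 (11.7%), and the ratio of 1.69 (0.99 to 3.0) did not exclude 1. Other counts gave both larger and smaller ratios. With at least 2 Ptprc UMIs the shares were 7.41% and 8.65% (ratio 1.17, 0.58 to 2.43), and the log2 ratio of Csf3r over all members was 0.30 in place of 1.17. Members with at least 2 of 13 neutrophil genes were 7.93% and 19.1% (ratio 2.41, 1.5 to 4.01), and among barcodes with 2 leukocyte genes in place of Ptprc, Csf3r was found in 6.31% and 13.8% (2.18, 1.40 to 3.52). Members with at least 2 of 15 macrophage and monocyte genes were 11.0% and 23.1%, a ratio of 2.09 where Csf1r alone had given 1.09. That list holds Lyz2 and Cd14, genes that neutrophils can also express. Flt3 was found in 2 KPC-4545 (0.690%) and 17 KPC-3403 members (3.96%, ratio 5.75, 1.36 to 51.3), and 2 dendritic genes in 6.90% and 9.09%. None of the 6 markers was found in 22 (7.59%) and 73 members (17.0%) (ratio 2.24, 1.38 to 3.8). Of these, 15 of 22 and 37 of 73 held at least 2 of 13 T cell genes, and 1 of 22 and 18 of 73 at least 2 of 13 neutrophil genes, so they include cells whose marker was missed.

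Background was read in barcodes with 0 Ptprc UMIs and at least 3 UMIs of the keratin genes Krt8 and Krt18, which should lack these markers (73 and 346 barcodes, median 9543 and 8375 UMIs). Csf3r and Ncr1 were found in 0 of 73 (upper exact limit 4.93%) and 0 of 346 (1.06%). Cd79a and Cd3e were found in 0 of 73 and in 2 of 346 each (0.578%). Csf1r was found in 3 of 73 (4.11%, 0.856 to 11.5) and 7 of 346 (2.02%, 0.817 to 4.12). The first interval holds the Csf1r share of the KPC-4545 members (7.24%). Flt3 was found in 4 of 73 (5.48%) and 1 of 346 (0.289%), so the Flt3 share of the KPC-4545 members lies below that of its keratin barcodes and is not read as dendritic cells. In the enriched libraries Flt3 was found in 27 of 898 keratin barcodes of KPC-4545 and 0 of 914 of KPC-3403. Csf1r was found in 1 of 898 and 72 of 914 (7.88%) of these. Of 2575 passing barcodes of enriched KPC-3403, 337 held Csf1r, and 2 of these held Ptprc. Csf1r is thus not read as a marker of macrophages alone, and the source of these UMIs was not tested.

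**Figure D1:**
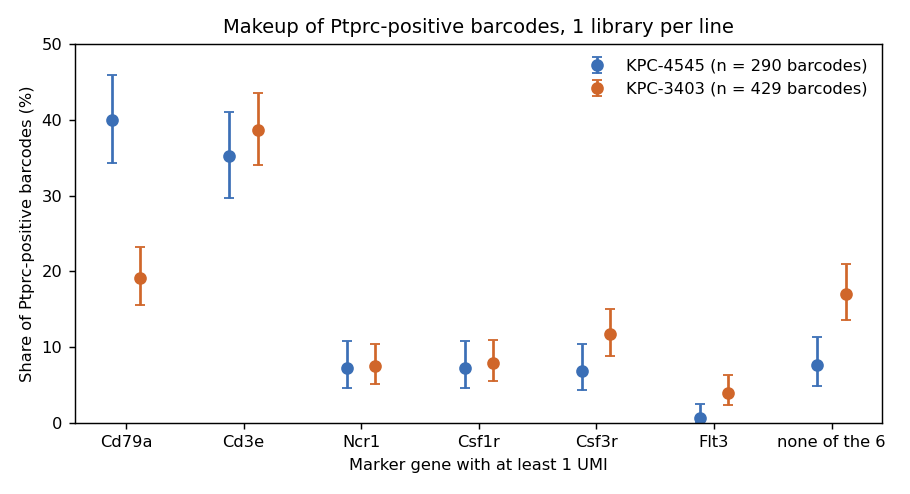
Share of Ptprc-positive barcodes (vertical axis, %) with at least 1 UMI of each marker, or with none of the 6, in the whole KPC-4545 (blue, 290 barcodes) and KPC-3403 (orange, 429 barcodes) libraries. Points are shares and bars are exact 95% intervals. The Cd79a intervals are apart (40.0% and 19.1%), as are those of barcodes with none of the 6 markers (7.59% and 17.0%), while those of Cd3e, Ncr1 and Csf1r overlap widely.

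Expression was compared within each marker group after the UMIs of its barcodes had been summed and scaled. A gene was compared where it had at least 20 UMIs over both libraries, and was called where the lines differed at least 2-fold. Since a few deep barcodes can carry a sum, it was also recorded whether a gene stayed past 2-fold without the barcode that held most of its UMIs, and in the mean of the levels of single barcodes. Genes that met all 3 are called broad here, a label that sets no minimum number of barcodes, so a broad gene can rest on few. Every percentage of genes is of all genes compared in that group. Over all members, 9.07% of 9270 genes were past 2-fold, 551 (5.94%) higher and 290 (3.13%) lower in KPC-3403, with 3.57% and 1.56% broad. The lists followed the makeup: 10 of 14 B cell genes were lower in KPC-3403 and 11 of 13 neutrophil genes higher, while 0 of 13 T cell genes passed 2-fold.

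**Figure D2:**
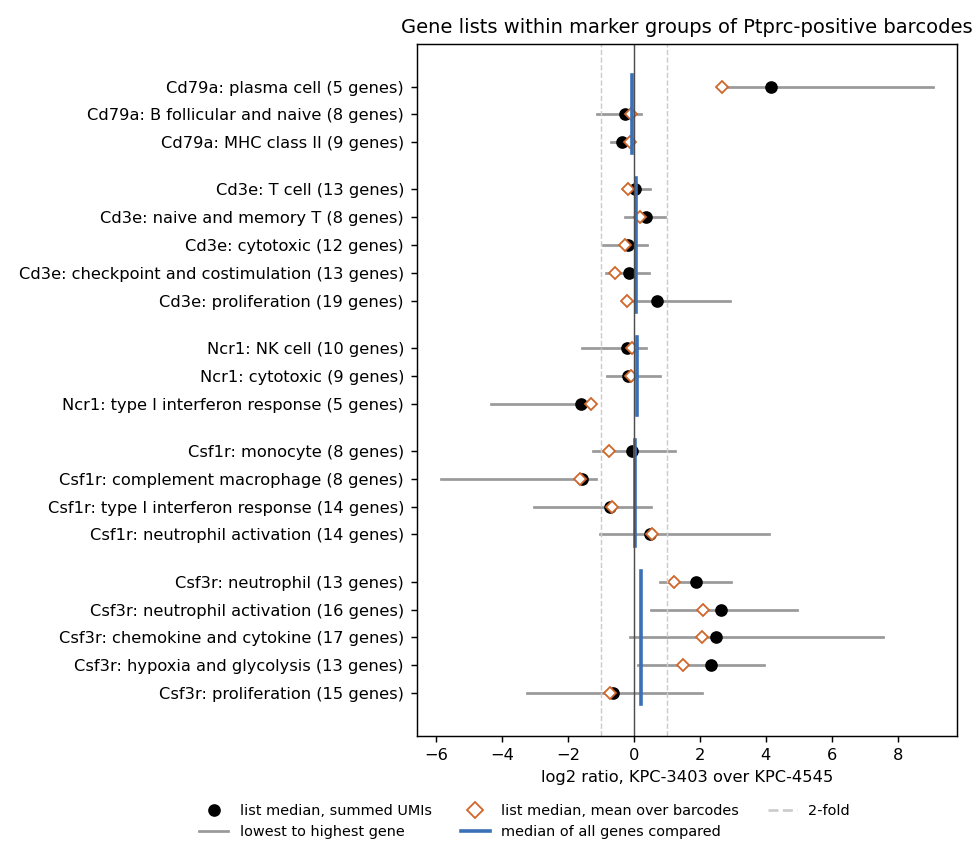
Log2 ratio of KPC-3403 over KPC-4545 (horizontal axis) for gene lists (rows) within the groups named by their marker gene. Black dots are list medians from summed UMIs, grey lines run from the lowest to the highest gene, orange diamonds are list medians from the mean over barcodes, blue bars are the median of all genes compared in that group, and dashed lines mark 2-fold. Complement macrophage genes of Csf1r-positive barcodes lie to the left (median -1.57), neutrophil activation (2.63) and hypoxia genes (2.35) of Csf3r-positive barcodes to the right, and the T cell lists near 0.

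Cd79a-positive barcodes. Genes of antibody-secreting plasma cells were higher in KPC-3403, through a few deep barcodes. Jchain, which joins the units of secreted IgA and IgM, had 7 UMIs in 3 barcodes of KPC-4545 and 3147 UMIs in 9 barcodes of KPC-3403. Without barcodes that had more UMIs in another library, its log2 ratio went from 9.07 to 10.62. Barcodes with at least 3 Jchain UMIs numbered 1 of 116 and 7 of 82. The 1 in KPC-4545 held 2570 UMIs and was the KPC-4545 member with more UMIs in another library, the enriched KPC-3403 library. The 7 held 134105 UMIs at a median of 19238 each, against a median of 3143 in the other KPC-3403 barcodes, out of 401668 UMIs in the KPC-3403 group. All 5 compared plasma cell genes were higher in KPC-3403 and broad, against 11.4% of 3965 genes past 2-fold in either direction (270 or 6.81% higher and 182 or 4.59% lower, with 2.65% and 2.37% broad). Scaled by library totals alone, the split was 173 and 423, and in the mean over barcodes 204 and 224. Of the plasma cell genes, Xbp1, the transcription factor of the secretory programme, had 15 UMIs in 13 barcodes and 277 in 10 (23.8-fold, 14.2 to 43.2). Mzb1, a chaperone of antibody assembly, had 149 UMIs in 74 barcodes and 765 in 58 (6.63-fold, 5.56 to 7.96).

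Further genes of the secretory pathway went with them. Creld2, an endoplasmic reticulum protein, had 7 UMIs in 6 barcodes and 177 in 11 (32.6-fold, 15.5 to 82.4), and Hsp90b1, an endoplasmic reticulum chaperone, 127 and 830 UMIs (8.44-fold, 6.99 to 10.3). Slpi, which encodes a secreted protease inhibitor, had 5 UMIs in 4 barcodes and 5910 in 10. Class-switched antibody genes came from a few barcodes: Ighg1 had 5 UMIs in 2 barcodes and 3360 in 3, Ighg2c 6 in 2 and 3192 in 3, and Ighg3 0 and 2455, of which 99.8% lay in 1 barcode. Ighm, the IgM heavy chain, had 440 and 1283 UMIs, but 69.0% of the latter were in 1 barcode and the log2 ratio fell from 1.91 to 0.30 without it.

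The remaining barcodes differed less. Without the barcodes of 3 or more Jchain UMIs (115 and 75 left), 0 of 8 follicular and naive B cell genes and 0 of 9 MHC class II genes passed 2-fold, with 7.71% of 3683 genes past it (3.2% higher and 4.51% lower in KPC-3403, with 1.63% and 2.25% broad). Cd79a chose the whole group, so its level there is a description, at 888 UMIs in 116 barcodes and 686 in 82 (scaled ratio 1.00, 0.91 to 1.11). In the whole group Ms4a1, which encodes the B cell antigen CD20, had 236 and 150 UMIs (1.22-fold higher in KPC-4545, 0.99 to 1.51). Scaled by library totals alone, the log2 ratios of Cd79a and Ms4a1 were -0.31 and -0.59. Genes higher in KPC-4545 in the whole group included Traf5, a signalling adaptor, with 31 UMIs in 26 barcodes against 7 in 7 (3.43-fold, 1.48 to 9.23), and Notch2, a receptor that marginal zone B cells require, with 34 in 28 against 7 in 7 (3.76-fold, 1.64 to 10.1). Both were broad. Fcer2a, which encodes the B cell IgE receptor CD23, had 116 and 48 UMIs and stayed under 2-fold (1.87-fold, 1.33 to 2.68). The erythroid list stood at 3.29 and 82.3 UMIs per 10000 in Cd79a-positive barcodes, with medians per barcode of 2.91 and 10.1 and a highest value of 3627. Without the 1 barcode of over 5% haemoglobin UMIs, 254 genes were higher and 195 lower in KPC-3403, against 270 and 182 with it.

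Cd3e-positive barcodes. T cell genes were at similar levels in sums, and 7.06% of 6107 genes were past 2-fold (303 or 4.96% higher and 128 or 2.1% lower in KPC-3403, with 2.52% and 0.901% broad). Scaled by library totals alone, the split was 237 and 196, and in the mean over barcodes it turned to 326 and 362. None of 13 T cell, 8 naive and memory, 12 cytotoxic or 13 checkpoint and costimulation genes passed 2-fold in sums, nor did any of 6 regulatory T cell genes. Cd8a, the cytotoxic lineage co-receptor, had 220 UMIs in 35 barcodes and 404 in 53 (1.10-fold, 0.93 to 1.30), and Pdcd1, which encodes the inhibitory receptor PD-1, 159 in 46 and 230 in 61 (1.15-fold higher in KPC-4545, 0.94 to 1.42). Some regulatory genes lay higher in KPC-4545 without reaching 2-fold in sums: Ctla4, an inhibitory receptor, with 275 and 290 UMIs (1.58-fold, 1.34 to 1.87), Tox, a transcription factor of chronically stimulated T cells, with 77 and 71 (1.81-fold, 1.29 to 2.54), and Ikzf2, which encodes Helios, with 180 and 186 (1.62-fold, 1.31 to 1.99). In the mean over barcodes Ctla4 and Ikzf2 were past 2-fold (log2 -1.14 and -1.21). The medians per barcode were 25.7 and 15.1 UMIs per 10000 for the checkpoint list and 8.92 and 5.73 for the regulatory T cell list, and 16 of 102 and 54 of 166 barcodes held no UMI of the latter.

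Named genes with many barcodes behind them were few. Smap2, a regulator of vesicle traffic, had 14 UMIs in 13 KPC-4545 barcodes and 87 in 61 of KPC-3403 (3.72-fold, 2.10 to 7.09), and Kcnn4, a calcium-activated potassium channel of activated lymphocytes, 18 in 14 and 81 in 49 (2.69-fold, 1.6 to 4.77). Cx3cr1, a chemokine receptor of effector T cells, had 6 in 4 and 39 in 19 (3.89-fold, 1.64 to 11.2). These 3 genes were broad. In the other direction, Ccrl2, an atypical chemokine receptor, had 93 UMIs in 15 barcodes and 37 in 22 (4.20-fold, 2.84 to 6.32), and Cd80, a costimulatory ligand, 21 in 9 and 3 in 3 (11.7-fold, 3.49 to 61.2). Cd7, a surface glycoprotein of T and NK cells, had 240 in 36 and 170 in 47 (2.36-fold, 1.93 to 2.89), and fell under 2-fold without its leading barcode.

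Large T cell ratios of granule genes came mostly from 1 barcode of mixed markers. The granule genes Camp, Ngp and S100a8 had 567, 729 and 1002 UMIs in KPC-3403 against 0, 3 and 11, and 98.8% or more of each lay in 1 barcode that also held Csf3r. Il1b, a cytokine mainly of myeloid cells, had 204 UMIs in 5 KPC-4545 barcodes against 2 in 1, and 6 of 6 compared MHC class II genes were lower in KPC-3403. The erythroid list stood at 2.83 and 109 UMIs per 10000 in this group, with medians per barcode of 2.20 and 7.08. Without the barcodes of over 5% haemoglobin UMIs, which left 162 of the 166 in KPC-3403, 288 genes were higher and 133 lower. Of 19 proliferation genes, 5 were higher in KPC-3403, and 3 of these were broad: Mki67, the proliferation antigen Ki-67, had 14 UMIs in 7 barcodes and 57 in 21 (2.44-fold, 1.34 to 4.74), Ube2c, a mitotic ubiquitin enzyme, 14 in 6 and 110 in 10, and Rrm2, an enzyme of nucleotide synthesis, 2 in 2 and 29 in 11 (8.68-fold, 2.20 to 75.1). The list median was 0.69 in sums and -0.21 in the mean over barcodes, so its direction depended on how barcodes were weighted.

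Divided by co-receptor, T cells with Cd8a or Cd8b1 and no Cd4 (40 and 63 barcodes) again had 0 of 12 checkpoint genes past 2-fold, with 10.1% of 3381 genes past it (7.01% higher and 3.14% lower, with 3.43% and 1.39% broad). Scaled by library totals alone, their split of 237 and 106 genes was 175 and 140. Those with Cd4 and neither Cd8 gene (25 and 38 barcodes, with 108809 UMIs in KPC-4545 against 221558 in the Cd8 barcodes) had 16.2% of 2425 genes past it (11.1% higher and 5.07% lower, with 4.54% and 1.81% broad). Their split of 269 and 123 turned to 156 and 228 by library totals. In the main scaling of these Cd4 barcodes, 5 of 8 naive and memory genes were higher in KPC-3403 and 4 of 7 cytotoxic and 3 of 10 checkpoint genes lower. Of the checkpoint genes, 4 of 10 were lower by library totals and 5 of 10 in the mean over barcodes. The folds that follow are also of the main scaling. Satb1, a chromatin organiser of naive T cells, had 7 UMIs in 6 barcodes and 75 in 21 (5.54-fold, 2.56 to 14.2), and Ccr7, the lymph node homing receptor, 12 in 3 and 102 in 14 (4.39-fold, 2.41 to 8.78). Conversely Ccl5, a chemokine of effector cells, had 428 UMIs in 11 barcodes and 123 in 10 (6.73-fold higher in KPC-4545, 5.50 to 8.30), and Gzmb, the cytotoxic protease granzyme B, 165 in 5 and 19 in 3, with 69.1% of the former in 1 barcode. All 4 genes were broad. Foxp3, the regulatory T cell factor, had 10 UMIs in 5 barcodes and 24 in 7 (1.24-fold, 0.57 to 2.91). Of 6 regulatory T cell genes in these Cd4 barcodes, 1 was higher and 1 lower in KPC-3403. By library totals 0 were higher and 1 lower, and in the mean over barcodes 0 and 3.

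Ncr1-positive barcodes. Most NK marker genes were at similar levels, and the activation genes Tnfrsf9 and Xcl1 were higher in KPC-4545. Of 10 NK genes, 9 stayed under 2-fold, and 12.2% of 1669 genes passed it (150 or 8.99% higher and 54 or 3.24% lower in KPC-3403, with 4.07% and 0.959% broad). Scaled by library totals alone, the split was 121 and 75, and in barcodes with no other of the 6 markers it was 61 and 59 of 1330 genes. Tnfrsf9, which encodes the activation receptor 4-1BB, had 40 UMIs in 14 of 21 barcodes in KPC-4545 and 11 in 9 of 32 in KPC-3403 (5.49-fold, 2.77 to 11.9). Xcl1, a chemokine that attracts cross-presenting dendritic cells, had 137 in 15 and 79 in 21 (2.62-fold, 1.97 to 3.5), and Klrb1b, an inhibitory NK receptor, 46 in 13 and 23 in 13 (3.02-fold, 1.79 to 5.22). All 3 were broad. The 5 compared genes of the type I interferon response were all lower in KPC-3403, but only Bst2, an antiviral membrane protein, was broad (40 UMIs in 11 barcodes and 12 in 8, 5.04-fold, 2.59 to 10.5), and all 21 UMIs of Ifi27l2a in KPC-4545 lay in 1 barcode.

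Cytotoxic genes did not move together. Ccl5 had 837 and 2183 UMIs (1.73-fold higher in KPC-3403, 1.59 to 1.87) and Gzma, which encodes granzyme A, 417 and 988 (1.57-fold, 1.40 to 1.76), while Gzmb had 160 and 136 (1.78-fold higher in KPC-4545, 1.41 to 2.25). None of 9 cytotoxic genes passed 2-fold. However, 4 of the 32 KPC-3403 barcodes and 0 of the 21 KPC-4545 barcodes also held Cd3e, and in barcodes with no other of the 6 markers Ccl5 (log2 1.01) and Gzma (1.03) were past 2-fold. Gzmc, another granzyme gene, had 89 UMIs in 4 barcodes and 7 in 2. Klf2, a factor of quiescence and recirculation, was broad and higher in KPC-3403, with 13 UMIs in 8 barcodes and 61 in 18 (3.11-fold, 1.69 to 6.16). All 6 compared MHC class II genes were higher in KPC-3403 and 4 were broad, but 1 barcode of that library also held Flt3 and 29550 UMIs. It held 99.0% of the UMIs of Cst3, a protease inhibitor gene high in dendritic cells, which had 15 and 1066 UMIs.

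Csf1r-positive barcodes. Genes of complement-producing macrophages were higher in KPC-4545. All 8 compared genes of the complement macrophage list were at least 2-fold lower in KPC-3403 (median log2 -1.57, against 0.04 for all genes), and 3 were broad, where 13.6% of 3246 genes passed 2-fold in either direction (8.6% higher and 4.99% lower, with 4.65% and 2.19% broad). The split of 279 and 162 genes was 305 and 318 in the mean over barcodes. C1qa, a subunit of complement C1q, had 230 UMIs in 8 of 21 barcodes and 78 in 7 of 34 (4.01-fold, 3.09 to 5.25). Apoe, the lipid carrier apolipoprotein E, had 801 in 14 and 334 in 17 (3.26-fold, 2.86 to 3.71). Ms4a7, a macrophage membrane protein, had 24 in 5 and 0, 10.9-fold lower in KPC-3403 at a floor of 3 UMIs over the group. C1qb, C1qc, Mrc1, Selenop and Trem2 were lower by 2.24 to 3.44-fold and came under 2-fold without their leading barcode.

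Per barcode, the complement list had a median of 22.6 UMIs per 10000 in KPC-4545 and 7.10 in KPC-3403, with ranges of 0 to 671 and 0 to 245 that overlap. In the barcodes with at least 3 further macrophage and monocyte genes and more UMIs of that list than of the neutrophil list (16 and 25), the medians were 46.2 and 11.6, and 7 of 8 genes stayed past 2-fold. That list holds C1qa, C1qb, C1qc, Mrc1, Apoe and Ms4a7, so the compared genes helped to choose these barcodes. The values are therefore a description and not separate support. Of 2762 genes compared there, 15.1% passed it (10.4% higher and 4.63% lower in KPC-3403, with 5.39% and 1.67% broad). Adgre1, which encodes the macrophage antigen F4/80, had 22 UMIs in 7 barcodes and 15 in 7 (1.99-fold higher in KPC-4545, 0.99 to 4.13). Of 8 monocyte genes, 1 was higher and 1 lower in the whole group. Ly6c2, of inflammatory monocytes, had 134 UMIs in 10 barcodes and 186 in 15 (1.02-fold, 0.81 to 1.29), but its log2 ratio was -0.73 without the leading barcode and -1.15 in the mean over barcodes.

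Other myeloid programmes went both ways. Of 14 type I interferon response genes, 5 were lower in KPC-3403 (median log2 -0.74), of which Irf7, the amplifying factor of that response, was broad, at 63 UMIs in 12 barcodes and 25 in 16 (3.42-fold, 2.12 to 5.68). Cd274, which encodes the T cell inhibitory ligand PD-L1, was higher in KPC-3403, at 2 UMIs in 2 barcodes and 33 in 14 (12.1-fold, 3.11 to 104). It was also broad within the barcodes with macrophage genes (2 UMIs in 2 barcodes and 28 in 12). Nr4a3, an immediate early nuclear receptor, had 5 in 3 and 55 in 12 (8.10-fold, 3.27 to 25.9). Granulocyte genes were higher as well: S100a9, a calcium-binding alarmin subunit, had 465 UMIs in 3 barcodes and 3320 in 8, and 9 of 21 and 14 of 34 barcodes held Csf3r too.

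A few barcodes gave some of the largest ratios. Ctsk, the collagen-degrading protease cathepsin K, had 411 UMIs in 2 KPC-4545 barcodes and 0 in KPC-3403, and Acp5, a phosphatase known from osteoclasts, 394 UMIs (63.2% in 1 barcode) and 22. With 2 leukocyte genes in place of Ptprc, the log2 ratio of Ctsk was -0.82 in place of -9.92 and that of Acp5 -1.09 in place of -4.57. Mpo, the peroxidase of granulocyte precursors, had 0 UMIs and 250 in 2 barcodes.

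Csf3r-positive barcodes. Most compared genes of neutrophil activation and low oxygen were higher in KPC-3403, in a group that was mixed in KPC-4545. In the barcodes with further neutrophil genes, described below, the summed activation level per barcode was not higher. The neutrophil list had a median of 122 UMIs per 10000 per barcode in KPC-4545 and 1254 in KPC-3403, with overlapping ranges of 0.896 to 3302 and 1.92 to 4336. Of 20 KPC-4545 barcodes 9 also held Csf1r, against 14 of 50, and the macrophage and monocyte list summed to 136 and 92.1 UMIs per 10000. In all, 29.5% of 2530 genes passed 2-fold (531 or 21.0% higher and 216 or 8.54% lower in KPC-3403, with 9.72% and 3.75% broad). Scaled by library totals alone, the split turned to 316 and 468, and the median log2 ratio of all genes moved from 0.20 to -0.19. In the mean over barcodes it was 315 and 692, at a median of -0.38. By library totals 14 of 16 activation and 9 of 13 hypoxia genes of the lists below were still at least 2-fold higher.

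Of 16 neutrophil activation genes, 15 were at least 2-fold higher in KPC-3403 and 12 were broad. Cxcl2, a ligand that recruits neutrophils, had 612 UMIs in 13 barcodes and 3504 in 45 (4.59-fold, 4.21 to 5.01), and its relative Cxcl3 had 13 in 3 and 373 in 15 (23-fold, 13.3 to 43.6). Nfkbia, the inhibitor of NF-kappaB that this factor itself induces, had 153 in 14 and 845 in 45 (4.43-fold, 3.73 to 5.30). Ccl4, an inflammatory chemokine, had 49 in 4 and 486 in 15 (7.96-fold, 5.92 to 10.9). Tnf, which encodes the cytokine TNF, had 4 in 3 and 169 in 14, with 75.7% of the latter in 1 barcode. Il1b, the inflammatory cytokine interleukin 1 beta and the most abundant member in KPC-4545, was the exception, at 1014 UMIs in 18 barcodes and 1801 in 47 (1.42-fold, 1.32 to 1.54), and lower in KPC-3403 in the mean over barcodes (log2 -0.46).

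The hypoxia and glycolysis list behaved alike, with 11 of 13 genes higher and 9 broad. Ero1l, an oxidase of protein folding, had 6 UMIs in 4 barcodes and 108 in 22 (14.4-fold, 6.42 to 40.2). Bnip3, a mitophagy receptor induced by low oxygen, had 4 in 2 and 84 in 20 (16.8-fold, 6.34 to 63.3), and Slc2a1, the glucose transporter GLUT1, 5 in 5 and 61 in 22 (9.79-fold, 3.97 to 31.2). Another gene named was Asprv1, an aspartic protease (0 UMIs and 130 in 11 barcodes, 34.8-fold higher at a floor of 3 UMIs over the group). Il1f9, which encodes interleukin 36 gamma, had 4 in 4 and 132 in 30 (26.5-fold, 10.1 to 98.6). Wfdc21, a granulocyte protein, had 53 in 3 and 724 in 32 (11.0-fold, 8.28 to 14.8). Cd274 had 5 UMIs in 1 barcode and 56 in 20 (8.98-fold, 3.63 to 28.7).

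The promoters of 5 genes of these lists are shown as examples that hold a match, chosen among genes with one. Windows of 140 bases before the start site were read from RefSeq (build GRCm38.p6), in capitals the kappaB consensus bound by NF-kappaB, or the hypoxia response core ACGTG, on either strand (overlapping matches run together).
Cxcl2, chr5:90903759-90903898, plus strand: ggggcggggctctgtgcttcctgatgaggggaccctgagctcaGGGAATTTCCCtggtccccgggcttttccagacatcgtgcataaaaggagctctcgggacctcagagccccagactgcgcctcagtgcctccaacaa
Cxcl3, chr5:90785961-90786100, plus strand: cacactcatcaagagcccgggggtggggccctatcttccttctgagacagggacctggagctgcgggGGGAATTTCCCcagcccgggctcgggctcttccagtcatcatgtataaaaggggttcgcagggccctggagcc
Nfkbia, chr12:55492648-55492787, minus strand: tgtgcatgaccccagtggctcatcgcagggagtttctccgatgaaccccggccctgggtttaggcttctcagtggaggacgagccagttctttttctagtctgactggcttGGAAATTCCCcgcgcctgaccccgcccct
Bnip3, chr7:138909507-138909646, minus strand: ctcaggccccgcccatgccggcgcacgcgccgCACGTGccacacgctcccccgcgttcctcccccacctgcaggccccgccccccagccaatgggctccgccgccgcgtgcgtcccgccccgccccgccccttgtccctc
Slc2a1, chr4:119108605-119108744, plus strand: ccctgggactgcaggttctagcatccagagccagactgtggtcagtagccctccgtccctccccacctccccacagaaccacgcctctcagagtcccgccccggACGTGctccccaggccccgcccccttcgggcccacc
The kappaB consensus occurred in 7 of 20 windows of 300 bases that matched 15 of the 16 activation genes (35.0%), and in 8.46% of all 32851 windows. ACGTG occurred in 11 of 19 windows of 12 of the 14 hypoxia genes (57.9%) and in 19.6% of all. No kappaB match was found for Tnf, Cd274, Ccl3, Icam1, Il1a, Il1b, Il1rn or Ptgs2, and no ACGTG for Eno1 or Pfkp. Hilpda, which stands in both lists, had a match of each kind. The lists were chosen with earlier results of these data known, so these shares describe the lists and were not a test of these tumours. A match describes letters and not binding.

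The comparison was repeated in barcodes with at least 3 further neutrophil genes and more neutrophil than macrophage and monocyte list UMIs (11 of the 20 and 41 of the 50). Most genes of both lists were again higher in KPC-3403, but the summed activation level per barcode was not. There, 32.8% of 1395 genes passed 2-fold (424 or 30.4% higher and 33 or 2.37% lower in KPC-3403, with 12.8% and 0.789% broad). That split depended on the scaling: it was 193 and 144 by library totals, with the median log2 ratio of all genes at 0.02 in place of 0.58, and 213 and 302 in the mean over barcodes. Of the activation genes 12 of 16 were higher and 11 broad, and of the hypoxia genes 11 of 12 and 6. By library totals these counts were 11 of 16 and 7 of 12, and in the mean over barcodes 11 of 16 and 6 of 12. In both of these, 1 activation gene was at least 2-fold lower in KPC-3403, against 0 in the main scaling, which the following folds use. Nfkbia had 46 UMIs in 8 barcodes and 733 in 37 (6.36-fold, 4.72 to 8.77), Cxcl3 13 in 3 and 373 in 15 (11.5-fold, 6.62 to 21.7) and Il1f9 4 in 4 and 130 in 29 (13.0-fold, 4.95 to 48.3). Cxcl2 had 601 in 11 and 3375 in 38 (2.24-fold, 2.06 to 2.45) and came under 2-fold without its leading barcode. Il1b turned to 1.43-fold higher in KPC-4545 (800 UMIs in 10 barcodes and 1401 in 38, 1.31 to 1.56). The summed activation list, in which Il1b and Cxcl2 have the most UMIs, had a median per barcode that was 442 UMIs per 10000 in KPC-4545 and 364 in KPC-3403, while the hypoxia list had 21.9 and 36.1. With 2 leukocyte genes in place of Ptprc (16 and 75 barcodes), the activation medians were 442 and 406 and the hypoxia medians 35.2 and 81.1, and 14 of 16 activation and 12 of 13 hypoxia genes were higher. These counts were 12 of 16 and 8 of 13 by library totals. In the mean over barcodes they fell to 8 of 16 and 4 of 13, with 1 activation gene at least 2-fold lower. Of 1927 genes compared there, 27.4% were higher and 2.8% lower. The split of 528 and 54 was 303 and 161 by library totals, and 286 and 292 in the mean over barcodes.

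**Figure D3:**
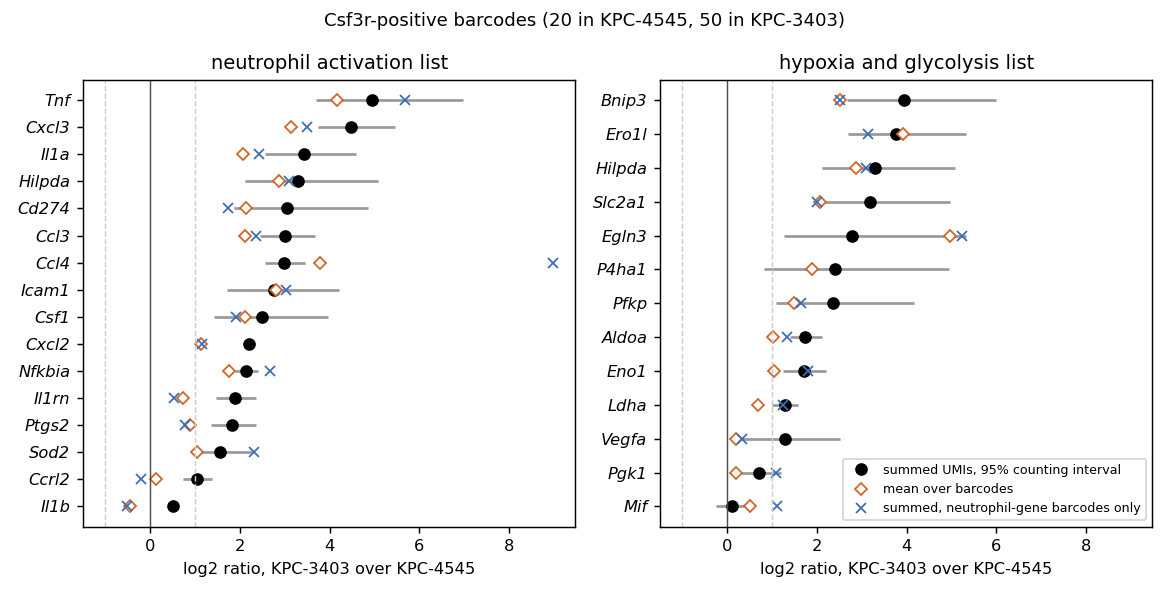
Log2 ratio of KPC-3403 over KPC-4545 (horizontal axis) for genes of the neutrophil activation list (left) and the hypoxia and glycolysis list (right) in Csf3r-positive barcodes, 20 and 50. Black dots are summed UMIs with 95% counting intervals, diamonds the mean over barcodes, crosses the sums of the 11 and 41 barcodes with further neutrophil genes, and dashed lines mark 2-fold. Most genes lie right of 2-fold by all 3 measures. Il1b lies near 0 or to its left, and the cross of Ccl4 is far to the right because its KPC-4545 sum there is 0.

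Genes lower in KPC-3403 included some of progenitors, each in few barcodes, and some of dividing cells. Cd34, a progenitor antigen, had 20 UMIs in 2 barcodes and 0 (8.31-fold lower at a floor of 3 UMIs), and Mpo 190 in 2 and 61 in 4. In Csf1r-positive barcodes Mpo had gone the other way. Myb, a progenitor transcription factor, had 19 in 5 and 2 in 1 (11.8-fold, 2.86 to 105). Of 15 proliferation genes 7 were lower and 1 higher, with 2 of the lower broad. Hspe1, a mitochondrial chaperonin, had 76 UMIs in 11 barcodes and 19 in 11 (4.99-fold, 2.99 to 8.73). Of granule genes, Camp, a neutrophil antimicrobial peptide, had 1060 UMIs in 1 barcode and 3449 in 7, so the KPC-4545 value rests on 1 barcode.

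**Figure D4:**
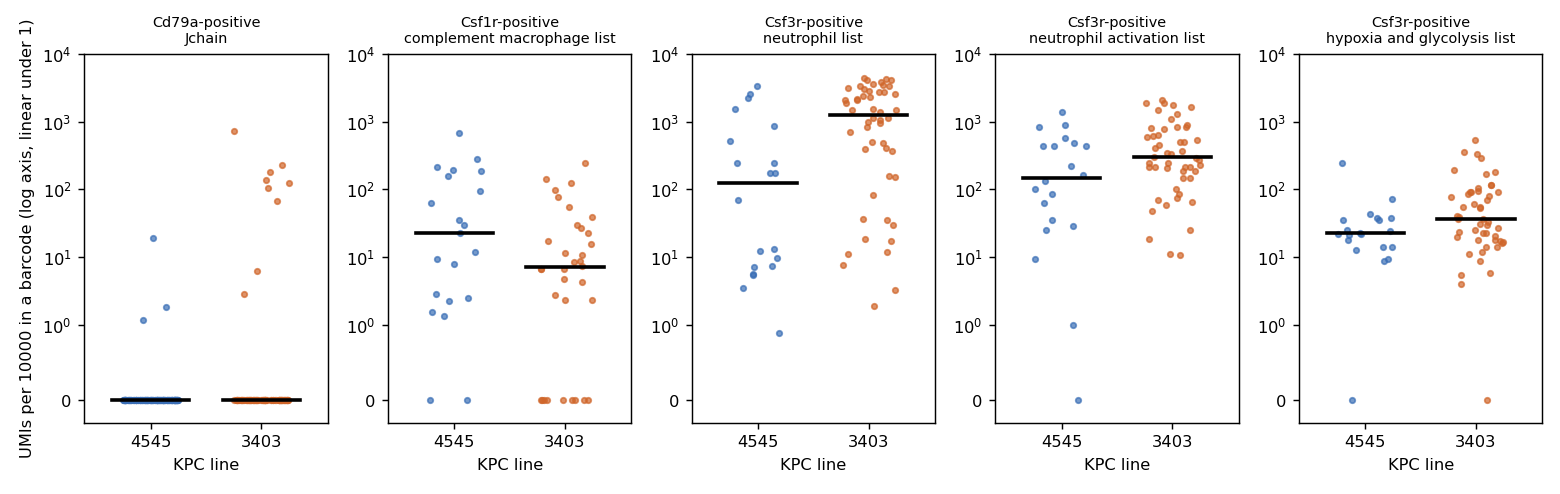
UMIs per 10000 in each barcode (vertical log axis, linear under 1) for Jchain in Cd79a-positive barcodes, the complement macrophage list in Csf1r-positive barcodes, and 3 lists in Csf3r-positive barcodes, by line (KPC-4545 blue, KPC-3403 orange). Each point is a barcode and black lines are medians. The 7 KPC-3403 barcodes of high Jchain stand apart, the complement medians are 22.6 and 7.10, and the neutrophil list is low in many KPC-4545 barcodes, so that group is mixed.

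Flt3-positive barcodes and dendritic cells. With 2 barcodes in KPC-4545 no comparison within this group was made, and levels only are given. The 17 KPC-3403 barcodes held 29.5 UMIs of 12 dendritic cell genes per 10000, and 2 of them also held Cd79a. Over all members, dendritic genes were higher in KPC-3403, with 8 of 11 past 2-fold and 6 broad, against 5.94% of all genes higher and 3.57% broad. Per member, however, the summed list had a median of 1.99 UMIs per 10000 in KPC-4545 (122 of 290 at 0) and 0 in KPC-3403 (231 of 429 at 0), and the share ratio of members with 2 dendritic genes was 1.32 (0.75 to 2.39). Plasmacytoid dendritic cells are a main source of type I interferon. Of their genes, Siglech, their surface lectin, had 0 UMIs and 68 in 5 barcodes (14.6-fold higher at a floor of 3 UMIs). Cox6a2, which they also express, had 0 and 83 in 7 (17.8-fold at that floor). For conventional type 1 dendritic cells, which cross-present antigen, the values were those of Clec9a, at 9 UMIs in 1 barcode and 77 in 9 (5.50-fold, 2.75 to 12.5), and Xcr1, the receptor for the chemokine Xcl1, at 4 in 4 and 35 in 10 (5.63-fold, 2.01 to 21.8). For type 2 cells, Clec10a, a lectin, had 7 in 6 and 60 in 13 (5.51-fold, 2.52 to 14.3). The chemokine genes Ccl17 and Ccl22 of migratory dendritic cells had 2 in 2 and 67 in 6, and 6 in 2 and 43 in 7, but Fscn1, their bundling protein, differed less (20 in 3 and 40 in 7, 1.29-fold, 0.73 to 2.32).

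Basophil genes lay in 1 barcode of KPC-3403. It held 166 of the 167 UMIs of the basophil protease gene Prss34, which had 0 UMIs in KPC-4545. Fcer1a, a chain of the IgE receptor, had 0 and 28 UMIs, all of the latter in 1 barcode.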

How the data were processed

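Droplet 5' RNA was measured in single-cell suspensions, and the authors deposited whole UMI counts per gene and barcode for 32285 genes, with empty droplets included. Reads were processed with Cell Ranger 6.1.1 and mm10, per the submitters' processing notes. From these counts, barcodes were filtered as stated in the report, and no doublets were removed (Scrublet, through scanpy 1.11.5, served as an alternative). Shares have exact Clopper-Pearson intervals and ratios exact conditional intervals (95%), from scipy 1.17.1. UMIs are not replicates, and these intervals cover counting error only.

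UMIs were summed per marker group and library and scaled by TMM (edgeR 4.0.16, R 4.3.3). Groups were compared where both libraries had at least 20 barcodes, or 10 for the parts of groups. Log2 ratios had 0.5 UMIs added, and a gene needed 20 UMIs over both libraries. A sum of 0 was set to a floor of 3 UMIs, and a fold at this floor leaves out the counting error of the other sum. No p-value was computed. The calculation was tested on simulated data. Members, gene lists and the parts of groups were chosen with earlier results of these data known. Named genes are the markers, up to 10 genes per direction and group by the counting bound nearest to no difference, the same among genes past 2-fold in all 3 measures, and up to 4 per list; other genes were chosen after their values were seen. Alternatives covered barcode filters, doublets, thinning, scaling (DESeq2 1.42.0), minimum UMIs and the weighting of barcodes.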

Additional observations from a re-analysis of the deposited data

Results flagged for a closer look

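The enriched KPC-3403 library, sorted as negative for CD45, still held 15 Ptprc-positive barcodes among 2575 that passed the thresholds (0.583%, 0.326 to 0.959), and no comparison used them. Of these, 10 carried Csf3r. The enriched KPC-4545 library held 2 of 1692 (0.118%, 0.0143 to 0.426).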

How the results depend on the processing

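The ratio of leukocyte shares (0.65) was 0.78 without barcodes of 3 or more keratin UMIs and 0.80 (0.61 to 1.07) with barcodes thinned to 500 UMIs, and 0.56 (0.45 to 0.70) thinned to 1000. With at least 2 markers of a list in place of 1 gene, the Csf1r ratio was 2.09 and the Flt3 ratio 1.32. The number of genes past 2-fold followed the minimum of UMIs. With at least 50 UMIs it was 401 over all members, 140 (Cd79a), 112 (Cd3e), 52 (Ncr1), 130 (Csf1r) and 319 (Csf3r). With no minimum above 1 UMI it was 4825, 4358, 4402, 4703, 4624 and 5284. Without the leading barcode of each gene it was 548 over all members, 285 (Cd79a), 266 (Cd3e), 106 (Ncr1) and 259 (Csf1r). It was 688 for Cd3e in the mean over barcodes and 120 for Ncr1 with 1 marker only. The log2 ratios of S100a8 (-0.57) and Ngp (-3.16) in Cd3e-positive barcodes and of Cst3 (-0.71) and Ifi27l2a (1.37) in Ncr1-positive barcodes reversed without the leading barcode. Cst3 was also reversed with 1 marker only (-0.84), and Il1b in Csf3r-positive barcodes in the mean over barcodes (-0.46). Beyond the constructions named, the cause was not tested.

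Not computed, since under 20 barcodes were left in a library, were expression in Ncr1-positive barcodes at 2 Ptprc UMIs, in Csf1r-positive barcodes at 10% mitochondrial UMIs, 2 Ptprc UMIs or 1 marker only, and in Csf3r-positive barcodes under these settings, at 1000 UMIs and without the highest doublet scores. Flt3 was in 0 KPC-4545 members thinned to 500 UMIs and gave no ratio. No paired analysis was possible because each line had 1 whole library.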
